A study of Homo sapiens with 14 samples.

Results

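The libraries described here came from pancreatic progenitors cultured for 7 days with I-BET151 or with its solvent DMSO, 2 libraries of each, chosen by their sample titles out of 14 libraries in the series. The cells were derived by stepwise differentiation from MEL1, a human embryonic stem cell line that in this study carried a green fluorescent protein reporter at the insulin locus. After a few passages they were kept in a basal medium of DMEM with B27, epidermal growth factor, basic fibroblast growth factor and 616452, an inhibitor of the TGF-beta receptor, and all of this was shared by both groups. The treated cells received 1 μM I-BET151 and the control cells DMSO alone, and all 4 libraries carried the same batch label. The comparison asks what the inhibitor changed in the transcriptome of progenitors from 1 line, and the progenitor, Notch and cell cycle genes are left aside in favour of the other programmes and gene families.

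I-BET151 blocks the bromodomains of BET proteins such as BRD2 and BRD3, which bind acetylated lysines on histones. BET proteins help to bring P-TEFb, the kinase complex that releases paused RNA polymerase II, to promoters and enhancers, and genes with strong enhancers are known to lean on them. HEXIM1, an inhibitory partner of P-TEFb, and several histone genes are widely used as readouts of BET inhibition. Pancreatic progenitors arise from the same foregut endoderm as stomach, liver and duodenum, which is why genes of those organs were followed here.

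Expression is given in TPM, transcript abundance corrected for transcript length and scaled to each library's total, and the total read count of each library is not known. Of 60624 listed genes, 16687 reached 1 TPM in at least 2 of the 4 libraries and were tested on the log2(TPM + 1) scale, which understates the change of weakly expressed genes. The genes at 1 TPM or more numbered 15809 to 16359 per library. Ribosomal protein genes took 20.3% and 27.9% of the listed TPM in DMSO replicates 1 and 2, and 16.8% and 27.8% with I-BET151, so replicates with the same number resembled each other in this respect. Pancreatic progenitor markers were expressed in both groups, with a summed level over 12 genes of 611.5 and 552 TPM in DMSO and 1603 and 986 TPM with I-BET151. The pluripotency genes NANOG and POU5F1 were under 0.1 TPM in every library. The hepatocyte, gastric and intestinal marker sets moved with treatment and their values stand beside the results below.

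A gene passed the test when its adjusted p was below 0.05 and its log2 fold change was beyond 1, with the replicate number as a block, so that each I-BET151 library was set against the DMSO library of the same number. By this rule 828 genes rose (4.96% of those tested) and 1466 fell (8.79%). Counts in the lists below that carry no share of their own are to be read against these. Without the block 1 gene passed as higher (0.00599%) and 34 as lower (0.204%). Each gene's fold change is the same with and without the block, so its direction could not differ between the fits. The labels do not say what the number marks, and whether the libraries came from separate cultures is not stated, so the p-values measure only the spread between these samples. Every gene said below to rise or fall refers to the fit with the block, and those that also passed without it are pointed out. Across all tested genes 48.6% were higher in both pairs and 29.3% were lower in both, the groups did not overlap for 46.8%, and the median log2 fold change was 0.16. The filter admitted 417 of the 1466 genes that fell and 99 of the 828 that rose through libraries of 1 group alone, with the other group under 1 TPM throughout, and such genes could hardly move the other way.

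**Figure D1:**
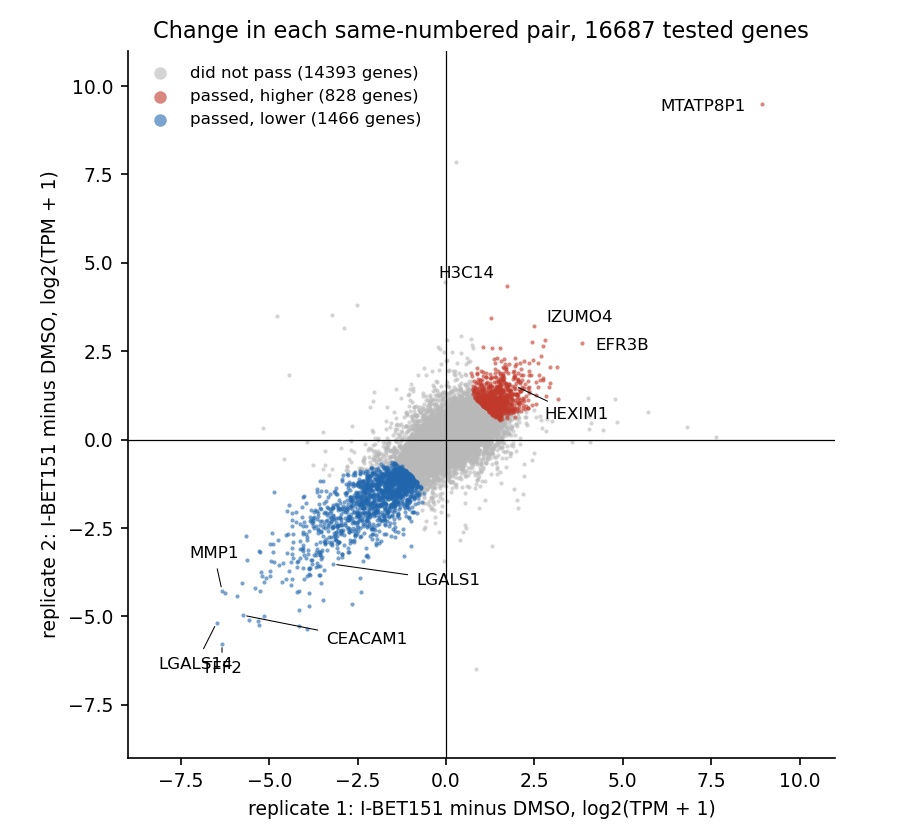
Each point is a tested gene, with the I-BET151 minus DMSO difference in log2(TPM + 1) of the replicate 1 libraries on the x axis and of the replicate 2 libraries on the y axis. The 1466 genes that passed as lower (blue) reach further from zero than the 828 that passed as higher (red), except for MTATP8P1 at the upper right.

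Neither BRD2 nor BRD3 passed the test. BRD2 was at 86.4 and 68.5 TPM in DMSO and 104 and 109 TPM with I-BET151 (log2 fold change 0.47, adjusted p = 0.112). BRD3 went from 13.5 and 14.5 TPM to 33.5 and 24.9 TPM, with an adjusted p of 0.0336 but a log2 fold change that lay just under 1. HEXIM1 was at 26.5 and 27.9 TPM in the DMSO libraries and at 105 and 82.2 TPM in the I-BET151 libraries. Both treated libraries lay far above both controls, and HEXIM1 rose by 1.73 ± 0.18 (SE) on the log2 scale (adjusted p = 0.00835). It was the only 1 of 10 tested members of the BET and P-TEFb list to pass. Of the 10, 8 were higher in both pairs (80%, against 48.6% of all genes), and the list's median was 0.49 against 0.16 for all genes. A list of 6 known BET inhibitor response genes, HEXIM1 among them, was less uniform. There 2 passed as higher and none as lower. In both pairs 3 of the 6 were higher (50%, near the 48.6% of all genes) and 1 was lower. MYC, a gene that BET inhibitors lower in many blood cancer lines, was at 105 and 82.1 TPM in DMSO and 176 and 108 TPM with I-BET151 and did not pass (log2 fold change 0.56, adjusted p = 0.0686). Its relative MYCL rose from 3.62 and 5.53 TPM to 16.03 and 10.1 TPM, and it alone of the 13 members of the MYC and MAX network passed.

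The promoters of strongly changed genes looked different on the 2 sides. Shown here to illustrate this are 6 windows from 250 bases before to 50 bases after the transcription start, from RefSeq on GRCh38.p14, with every CpG dinucleotide in capitals. The first 3 belong to genes that rose and hold 32, 30 and 28 CpGs. They are HEXIM1 (chr17:45148225-45148524, plus strand), EFR3B (chr2:25041826-25042125, plus strand) and SFRP5 (chr10:97771950-97772249, minus strand).
HEXIM1: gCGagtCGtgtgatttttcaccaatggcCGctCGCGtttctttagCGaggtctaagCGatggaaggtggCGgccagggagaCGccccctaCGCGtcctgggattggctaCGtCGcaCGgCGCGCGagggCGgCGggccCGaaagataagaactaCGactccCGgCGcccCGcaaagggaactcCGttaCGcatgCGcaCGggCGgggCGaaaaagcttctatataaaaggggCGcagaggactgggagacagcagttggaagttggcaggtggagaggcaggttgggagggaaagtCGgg
EFR3B: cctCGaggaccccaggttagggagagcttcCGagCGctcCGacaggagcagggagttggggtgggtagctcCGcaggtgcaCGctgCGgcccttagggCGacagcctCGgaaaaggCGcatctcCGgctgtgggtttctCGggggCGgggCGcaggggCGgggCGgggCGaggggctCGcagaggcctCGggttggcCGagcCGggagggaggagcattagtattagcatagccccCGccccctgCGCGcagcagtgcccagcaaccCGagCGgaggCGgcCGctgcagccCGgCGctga
SFRP5: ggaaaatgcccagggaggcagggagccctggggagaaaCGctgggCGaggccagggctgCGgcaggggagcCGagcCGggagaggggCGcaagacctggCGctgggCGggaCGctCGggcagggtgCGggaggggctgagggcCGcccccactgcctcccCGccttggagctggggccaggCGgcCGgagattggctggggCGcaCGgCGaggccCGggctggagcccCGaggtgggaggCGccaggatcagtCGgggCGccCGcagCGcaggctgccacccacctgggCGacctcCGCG
The next 3 belong to genes that fell and hold 3, 0 and 4 CpGs. They are CEACAM1 (chr19:42528432-42528731, minus strand), GPA33 (chr1:167090328-167090627, minus strand) and TM4SF4 (chr3:149474447-149474746, plus strand).
CEACAM1: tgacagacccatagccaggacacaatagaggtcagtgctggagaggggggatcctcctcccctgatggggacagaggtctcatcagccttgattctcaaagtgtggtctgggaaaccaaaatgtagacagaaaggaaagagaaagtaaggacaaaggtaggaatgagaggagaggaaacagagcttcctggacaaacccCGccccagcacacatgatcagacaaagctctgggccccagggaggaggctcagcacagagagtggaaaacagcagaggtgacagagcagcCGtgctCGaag
GPA33: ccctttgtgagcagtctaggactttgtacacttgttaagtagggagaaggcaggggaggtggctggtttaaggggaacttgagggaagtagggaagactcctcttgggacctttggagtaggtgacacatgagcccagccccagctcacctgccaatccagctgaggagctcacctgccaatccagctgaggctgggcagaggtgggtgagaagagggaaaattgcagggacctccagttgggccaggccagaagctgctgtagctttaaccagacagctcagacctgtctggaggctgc
TM4SF4: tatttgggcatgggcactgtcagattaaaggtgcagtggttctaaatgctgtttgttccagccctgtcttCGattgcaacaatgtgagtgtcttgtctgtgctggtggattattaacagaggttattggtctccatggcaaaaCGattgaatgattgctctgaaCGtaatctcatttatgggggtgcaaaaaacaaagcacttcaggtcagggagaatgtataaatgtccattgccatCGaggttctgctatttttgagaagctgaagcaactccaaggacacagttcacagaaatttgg
The letters TATAAA stand 29 bases before the start in HEXIM1 and 31 bases before it in TM4SF4.

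The contrast in CpG content held across the transcriptome. Windows of the same 300 bases were read from hg38 at the start of the canonical transcript of 13097 of the 13098 tested protein-coding genes (GENCODE release 44). The median window held 31 CpGs among the 619 protein-coding genes that rose, 14 among the 1284 that fell and 28 among the 11195 that did neither. Fewer than 10 CpGs were found in 40.7% of the windows of genes that fell, in 4.04% of those of genes that rose and in 6.97% of the others. Read the other way, 523 of the 1328 genes with fewer than 10 CpGs fell (39.4%) and 25 rose (1.88%), whereas among the 5538 genes with 30 or more, 302 fell (5.45%) and 354 rose (6.39%). The median log2 fold change went from -0.67 in the lowest CpG class (-0.77 and -0.55 in the pairs of replicates 1 and 2) to 0.24 in the highest (0.28 and 0.17). These shares and medians include genes that met the filter through 1 group alone and could hardly move the other way. Over all biotypes these were 417 of the 1466 genes that fell and 99 of the 828 that rose. How much of the contrast remains without them was not tested. On either strand, TATAAA occurred in 12.7% of the windows of genes that fell and 5.89% of all windows. CAAAGTCCA, an HNF4 motif, was found in 23 of the 1284 windows (1.79%) against 0.305% of all. CCAAT went the other way, with 28.7% of the windows of genes that fell, 43.3% of those of genes that rose and 36.2% of all. These are counts of letters, and no factor was measured at these sites.

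**Figure D2:**
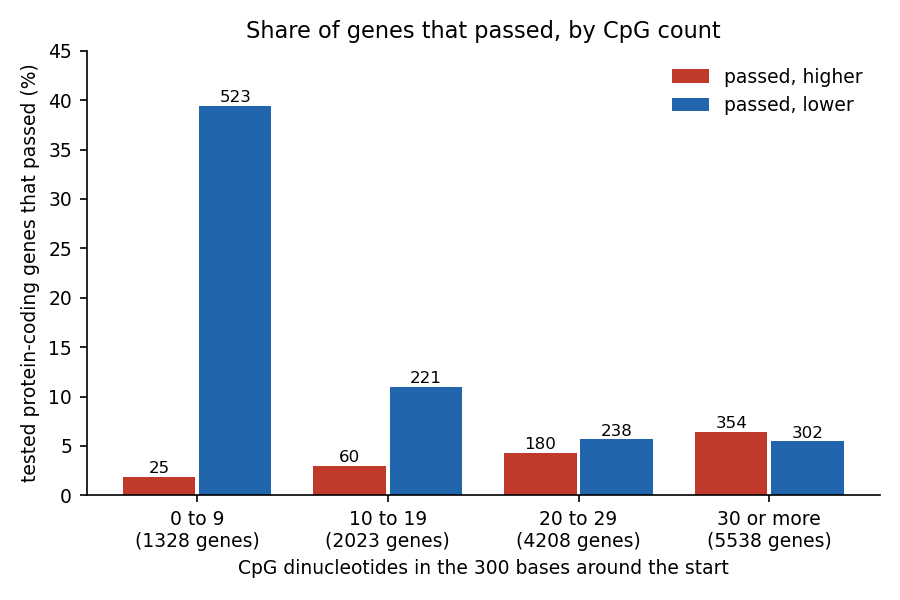
Bars give the percentage of tested protein-coding genes that passed as higher (red) or lower (blue) in 4 classes of CpG count in the 300 bases around the start, with the number of genes that passed above each bar. The share that fell drops from 39.4% to 5.45% across the classes, and the share that rose goes from 1.88% to 6.39%.

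Genes of the gastric epithelium fell steeply. All 5 tested of 17 listed genes passed as lower, 2 of them also without the block, and their median log2 fold change was -3.96. The trefoil factors are small secreted proteins that stabilise the mucus of stomach and gut, and their genes lie side by side on chromosome 21 (hg38, 42311667 to 42366535). TFF2 was at 234 and 132 TPM in the DMSO libraries and at 1.91 and 1.44 TPM with I-BET151. TFF1 was at 277 and 176 TPM and then at 6.88 and 4.59 TPM. TFF3, the intestinal member, was at 31.9 and 22.5 TPM and then at 3.23 and 2.697 TPM. No treated library came near a control in any of the 3. On the log2 scale TFF2 fell by 6.05 ± 0.21, TFF1 fell by 5.06 ± 0.16 and TFF3 fell by 2.81 ± 0.21 (SE, adjusted p = 0.00215, 0.00215 and 0.00473). TFF1 and TFF2 also passed without the block (adjusted p = 0.048 for both). CTSE, the aspartic protease of gastric surface cells, fell from 72.6 and 50.1 TPM to 1.33 and 5.62 TPM, and VSIG1, a junction protein of the stomach, from 7.69 and 16.3 TPM to 0.274 and 5.73 TPM. The gastric mucin gene MUC5AC and the gastrokine genes GKN1 and GKN2 were under 0.1 TPM in every library. The gastric marker set summed to 587 and 359 TPM in DMSO and 10.7 and 12.02 TPM with I-BET151, and in bulk RNA fewer cells of a type and less RNA per cell cannot be told apart.

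Intestinal genes fell as a broad block, with 26 of 31 tested members passing as lower (83.9%, against 8.79% of all tested genes) and none as higher. In both pairs 28 of the 31 were lower (90.3%, against 29.3%). The list's median log2 fold change was -2.81, and its summed level went from 5158 and 7920 TPM to 619.6 and 1594 TPM. Of the 26 that passed, 4 were under 1 TPM in both I-BET151 libraries. GPA33, a surface antigen of gut epithelium, was at 40.6 and 39.6 TPM in DMSO and 0.0408 and 0.165 TPM with I-BET151 (it fell by 5.22 ± 0.22 on the log2 scale). It was the 1 member of this list that also passed without the block. CDHR2, a cadherin that links the tips of microvilli, went from 37.7 and 20.9 TPM to 0.226 and 0.681 TPM. CDH17, the liver-intestine cadherin, went from 415 and 442 TPM to 17.1 and 66.98 TPM, with replicate 2 keeping more of it. CDX2, the master factor of intestinal identity, was chosen for mention after its values were seen: at 237 and 104 TPM in DMSO and 146 and 95.9 TPM with I-BET151 it did not pass (log2 fold change -0.41, adjusted p = 0.182).

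Several gene families, some of whose members also stand in the intestinal list, fell as well. Of 6 tested CEACAM genes, which encode adhesion molecules of the carcinoembryonic antigen family clustered on chromosome 19, 5 fell. Of these 5, 2 were under 1 TPM in both I-BET151 libraries. The family's summed level went from 647 and 1253 TPM to 31.6 and 79.97 TPM. CEACAM1 was at 462 and 524 TPM in DMSO and 7.58 and 15.8 TPM with I-BET151 (it fell by 5.36 ± 0.23), and it passed without the block as well. CEACAM6 was at 128 and 502 TPM and then 6.87 and 51.7 TPM, CEACAM5 at 19.2 and 144 TPM and then 0.365 and 4.61 TPM, and CEACAM7 at 14.7 and 61.96 TPM and then 0.0211 and 0.529 TPM. For these 3 the replicate 2 libraries were the higher in each group, and reads may be shared between such close relatives. All 7 tested galectin genes fell (median -2.91), among them LGALS14 (346 and 136 to 2.87 and 2.79 TPM, also past the test without the block), LGALS1 (121 and 90.3 to 12.2 and 6.96 TPM) and the intestinal LGALS4 (57.6 and 15.6 to 2.08 and 2.3 TPM). Of 12 tested S100 calcium-binding protein genes 9 fell, with S100A14 at 256 and 390.5 TPM in DMSO and 14.6 and 70.8 TPM with I-BET151. S100P passed too, but its groups overlapped: 454 and 1443 TPM in DMSO and 14.6 and 516 TPM with I-BET151. TSPAN8, a tetraspanin of gut and tumour epithelium, went from 490.0 and 595 TPM to 7.93 and 34.8 TPM, and MUC13, a membrane mucin, from 582 and 880.4 TPM to 72.6 and 206 TPM. Among water channels 4 of 5 fell, 2 of them under 1 TPM in both I-BET151 libraries. AQP10 went from 56.2 and 14.9 TPM to 2.83 and 0.8403 TPM.

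**Figure D3:**
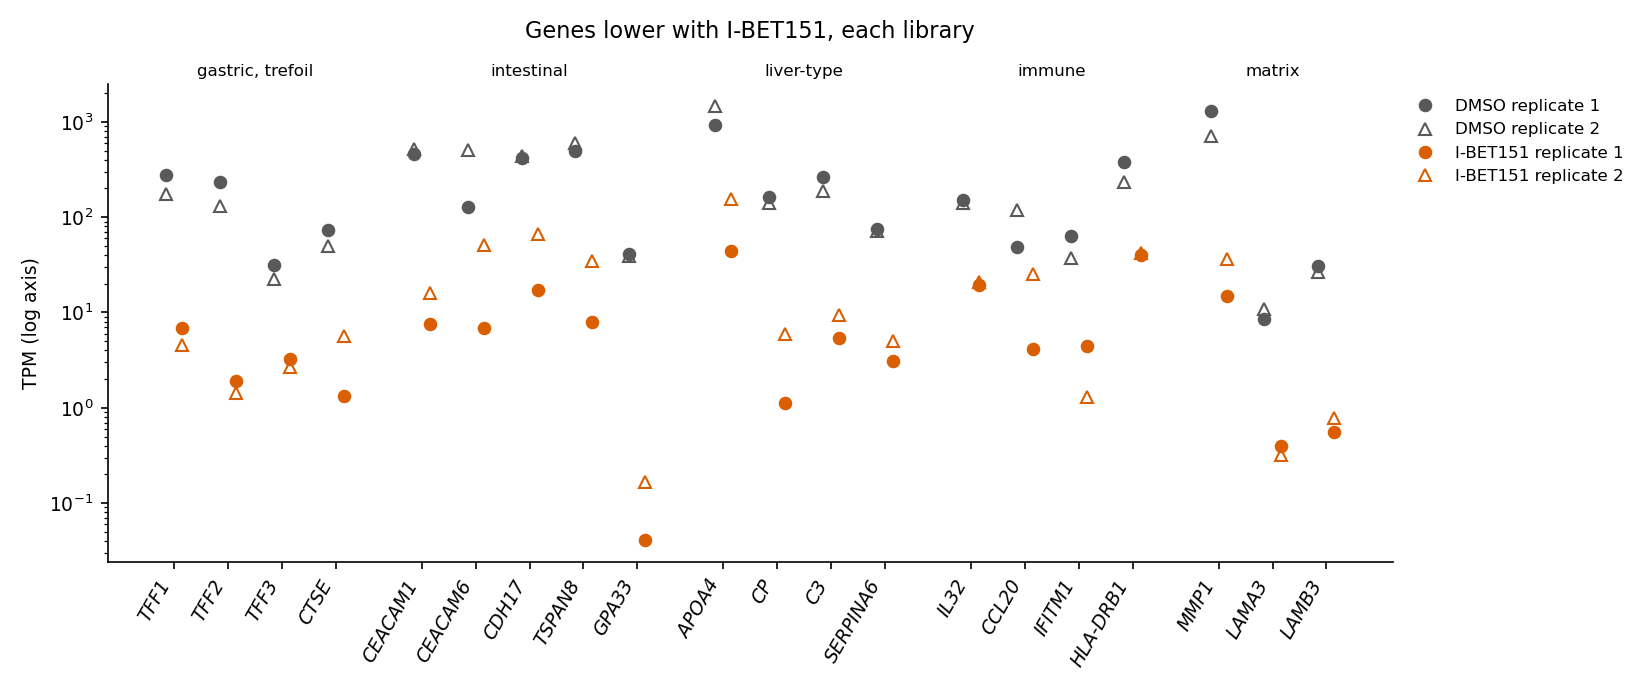
TPM on a log axis in each of the 4 libraries for genes that fell, grouped by programme, with DMSO in grey, I-BET151 in orange, replicate 1 as filled circles and replicate 2 as open triangles. Every orange symbol lies below both grey symbols of the same gene, with CEACAM6 the nearest to overlap among the intestinal genes (51.7 TPM in I-BET151 replicate 2 and 128 TPM in DMSO replicate 1).

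Liver-type genes were abundant in the control cells and fell with the inhibitor. Of 26 tested genes for liver plasma proteins 20 fell and none rose (median -1.78), and their sum went from 17381 and 16060 TPM to 5419 and 6058 TPM. CP, which encodes the copper carrier ceruloplasmin, was at 162 and 139.8 TPM in DMSO and 1.13 and 5.901 TPM with I-BET151 (it fell by 5.30 ± 0.45). APOA4, an apolipoprotein of liver and gut, was at 927 and 1473 TPM and then 44.3 and 156 TPM. ITIH2, a hyaluronan-binding plasma protein, fell from 17.1 and 29.5 TPM to 0.245 and 1.48 TPM. SERPINA6, the cortisol carrier of plasma, fell from 75.3 and 72 TPM to 3.12 and 5.05 TPM and passed without the block as well. The set of 12 hepatocyte markers, of which HP was under 0.1 TPM in every library, summed to 11851 and 10565 TPM in DMSO and 1527 and 3618 TPM with I-BET151, and 8 of its 10 tested members fell. The part that cells bearing the hepatocyte, gastric or intestinal markers have in the other results was not tested.

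Complement and coagulation genes, some of which also stand in the liver or acute phase lists, fell as well. Of 37 tested genes 23 passed as lower (62.2%, against 8.79% of all tested genes) and none as higher. The 23 include 7 that were under 1 TPM in both I-BET151 libraries. In both pairs 31 of the 37 were lower (83.8%, against 29.3%), and the list's median was -1.62. C3, the hub of the complement cascade, was at 267 and 188 TPM in DMSO and 5.38 and 9.37 TPM with I-BET151 and passed with and without the block. F2, which encodes prothrombin, went from 301 and 134 TPM to 30.7 and 16.4 TPM, and SERPINC1, which encodes antithrombin, from 21.1 and 24.9 TPM to 0.465 and 1.77 TPM. Of the acute phase list 11 of 19 fell. A2M, a broad protease trap, illustrates the difference between replicates, at 61.1 and 299.5 TPM in DMSO and 3.55 and 58.3 TPM with I-BET151, so that the treated library of replicate 2 nearly reached the control library of replicate 1.

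Among 30 genes of lipid transport 17 fell (median -1.37), including the ileal bile acid binder FABP6 (16.5 and 51.3 to 0.542 and 4.27 TPM) and APOC2, the cofactor of lipoprotein lipase (62.4 and 67.5 to 2.802 and 9.71 TPM). Of 14 lipid droplet genes 5 fell. CIDEC and CIDEB, which control droplet fusion and lipoprotein loading, passed with and without the block, CIDEC at 65.7 and 78.5 TPM in DMSO and 0.408 and 1.33 TPM with I-BET151 and CIDEB at 64.01 and 49.1 TPM and then 0.697 and 1.59 TPM. AADAC, a lipid hydrolase of liver and gut, fell from 82.6 and 41.6 TPM to 0.395 and 0.985 TPM and passed both ways too, and the secreted phospholipase gene PLA2G2A fell from 60.3 and 138 TPM to 0.563 and 2.66 TPM. DGAT2, the last enzyme of triglyceride synthesis, fell from 30.5 and 48.9 TPM to 1.83 and 1.17 TPM. Cholesterol synthesis moved less, with 5 of 24 genes lower (median -0.50), among them MSMO1 (220.0 and 209 to 80.4 and 56.97 TPM). Of 13 fatty acid synthesis genes ME1 alone passed, as lower.

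Detoxification families differed in their counts. Among 12 tested UDP-glucuronosyltransferases, the enzymes that conjugate bilirubin, steroids and drugs, 11 fell, UGT2B17 from 18.7 and 53.4 TPM to 0.332 and 2.87 TPM. Of these 11, 10 met the filter through the DMSO libraries alone and were under 1 TPM in both I-BET151 libraries, so that their count is no measure of the family. Members of this family share exons or near-identical sequence, so the values of single genes are uncertain. Of 19 cytochrome P450 genes 7 fell and 2 rose, and CYP2S1 went from 64.5 and 17.9 TPM to 2.72 and 1.61 TPM. Of 15 glutathione transferases 1 fell and none rose (median -0.41), a share below that of all genes, and of 2 tested metallothioneins, which bind metal ions, 1 rose. Among 33 nuclear receptors 7 fell, 3 of them under 1 TPM in both I-BET151 libraries, and 2 rose. NR1H4, the bile acid receptor, was at 28.4 and 39.96 TPM in DMSO and 0.474 and 5.399 TPM with I-BET151. PPARG, a regulator of fat storage, was at 156 and 56.9 TPM and then 55.4 and 25.2 TPM, and NR1H3, the oxysterol receptor, at 70.97 and 28.9 TPM and then 18.9 and 13.1 TPM. NR6A1, the germ cell nuclear factor, rose from 15.2 and 10.3 TPM to 39.5 and 26.98 TPM. Of 225 solute carriers 52 fell (23.1%, against 8.79% of all tested genes) and 10 rose (4.44%, against 4.96%). The 52 include 14 that were under 1 TPM in both I-BET151 libraries and could hardly have risen. The ileal bile acid transporter SLC10A2 was 1 of these 14 (14.3 and 17.5 to 0.0443 and 0.453 TPM, also past the test without the block). The gut zinc importer SLC39A4 fell from 159 and 99.4 TPM to 13.6 and 6.798 TPM.

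Immune and inflammatory genes of the epithelium fell as well. Of 20 tested chemokine and interleukin genes 10 fell (50%, against 8.79% of all tested genes) and none rose. In both pairs 17 of the 20 were lower (85%, against 29.3%), and the list's median was -1.24. CCL20, a chemokine that attracts lymphocytes to mucosa, was at 49.1 and 119.8 TPM in DMSO and 4.18 and 25.2 TPM with I-BET151. IL32 was steadier between replicates, at 149.8 and 142 TPM and then 19.4 and 21.1 TPM. Among interferon-stimulated genes 15 of 29 fell, 7 of them under 1 TPM in both I-BET151 libraries, and HERC5 rose. IFITM1, which blocks virus entry, fell from 62.9 and 37.1 TPM to 4.46 and 1.29 TPM, and OAS1, a sensor of double-stranded RNA, from 30.4 and 30.1 TPM to 1.901 and 4.54 TPM. HERC5 stayed weak, at 0.0775 and 0.181 TPM in DMSO and 1.197 and 2.51 TPM with I-BET151, and is named because it went against the rest. All 11 genes of MHC class I presentation were lower in both pairs (100%, against 29.3% of all tested genes), and 6 passed (54.55%, against 8.79%). Among the 6 were HLA-C (56.1 and 39.2 to 15.7 and 11.2 TPM) and the peptide trimmer ERAP1 (13.8 and 18.3 to 3.23 and 7.55 TPM). HLA-DRB1, of class II, fell from 376 and 237 TPM to 40.3 and 41.9 TPM. Reads from HLA genes can be misassigned between relatives. In the NF-kB list 7 of 23 fell and 1 rose: ICAM1, an adhesion molecule, went from 14.4 and 13 TPM to 0.684 and 2.74 TPM, while NFKBIZ, a nuclear cofactor of NF-kB, went from 9.45 and 13.4 TPM to 27.4 and 70.2 TPM.

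Cadherins, which join cells, went both ways. CDH1, which encodes E-cadherin, was at 121 and 118 TPM in DMSO and 25.9 and 36.97 TPM with I-BET151 and fell by 1.92 ± 0.19 (adjusted p = 0.0078). CDH2, which encodes N-cadherin, was at 28.7 and 38.7 TPM and then 83.7 and 141 TPM, a rise of 1.68 ± 0.17 (adjusted p = 0.0078). The treated libraries did not overlap the controls for either gene, and without the block neither passed (adjusted p = 0.0952 and 0.153). Of 8 tested cadherins 4 fell, 2 of them under 1 TPM in both I-BET151 libraries, and 2 rose. Among 13 claudins, the sealing proteins of tight junctions, 6 fell, with CLDN4 at 266 and 66.6 TPM and then 7.76 and 9.92 TPM and CLDN7 at 276 and 358 TPM and then 47.6 and 83.8 TPM. Of 9 tested keratins 4 fell, 3 of them under 1 TPM in both I-BET151 libraries, and none rose (median -0.83). KRT20, of mature gut cells, fell from 90 and 149 TPM to 7.94 and 26.2 TPM, and KRT23, which also passed without the block, from 15.3 and 13.3 TPM to 0.177 and 0.251 TPM. KRT8 and KRT18, the general keratins of simple epithelia, named after their values were seen, had log2 fold changes of -0.02 and 0.13 and did not pass. ZEB1, a repressor of CDH1, rose from 0.209 and 4.33 TPM to 5.01 and 10.6 TPM, and a link between the changes of these genes was not tested. Its list, actin cytoskeleton and migration, had 4 risers and 6 fallers among 42 tested genes (9.52% and 14.3%, against 4.96% and 8.79% of all tested genes). The median of that list was -0.08.

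In the basement membrane, 3 of 9 tested laminin genes fell, 2 of them under 1 TPM in both I-BET151 libraries, and 1 rose. LAMA3 and LAMB3 encode chains of laminin-332, which anchors epithelia through hemidesmosomes, and both fell. LAMB3 was at 30.8 and 26.5 TPM in DMSO and 0.559 and 0.786 TPM with I-BET151 and passed with and without the block. LAMA3 was at 8.502 and 10.9 TPM and then 0.401 and 0.317 TPM. LAMA1, the alpha chain of the embryonic laminin, rose from 57.7 and 49.97 TPM to 130.1 and 93.7 TPM. Genes for partners of laminin-332 in the hemidesmosome fell too, ITGB4 from 14.9 and 4.18 TPM to 1.41 and 0.585 TPM and COL17A1 from 8.97 and 6.93 TPM to 0.0733 and 0.0683 TPM. Among 17 integrin genes 4 fell and ITGA9 rose (1.88 and 1.49 to 7.32 and 4.73 TPM). Of 26 collagen genes 8 fell (30.8%, against 8.79% of all tested genes) and 1 rose (3.85%, against 4.96%). The 8 include 2 that were under 1 TPM in both I-BET151 libraries.

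Of 36 matrix proteases and inhibitors 10 fell, 4 of them under 1 TPM in both I-BET151 libraries, and 2 rose. MMP1, the interstitial collagenase, was at 1291 and 716 TPM in DMSO and 15.01 and 35.99 TPM with I-BET151, and MMP10, a stromelysin, at 54.2 and 25.1 TPM and then 1.704 and 3.86 TPM. MMP17, a membrane-anchored protease, rose from 1.604 and 0.535 TPM to 19.1 and 5.32 TPM, and ADAMTS7, which cleaves cartilage matrix proteins, from 25.1 and 7.21 TPM to 129 and 25.1 TPM. For ADAMTS7 the lower treated library only just exceeded the higher control.

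Several of the 34 genes that passed as lower both ways lay outside the named groups and are shown for it. ASGR1 and ASGR2 encode the asialoglycoprotein receptor of hepatocytes, and ASGR1 was at 32.9 and 24.4 TPM in DMSO and 0.871 and 1.36 TPM with I-BET151 while ASGR2 was at 14.3 and 19.8 TPM and then 0.0704 and 0.457 TPM. AGR3, a disulfide isomerase of secretory epithelium, went from 56.1 and 34.03 TPM to 0.658 and 1.34 TPM, and GUCA2A, the gut hormone guanylin, from 70.4 and 80.6 TPM to 5.17 and 6.82 TPM. TMPRSS4, a membrane serine protease, went from 13.9 and 10.7 TPM to 0.231 and 0.295 TPM. Genes usually linked to stroma were among them, with LOX, a collagen crosslinker, at 51.2 and 38.7 TPM and then 1.82 and 2.62 TPM and LUM, a collagen-binding proteoglycan, at 16.2 and 14.2 TPM and then 0.477 and 0.67 TPM. DLK1, a Notch-like protein of fetal tissue, went from 995 and 902 TPM to 82.4 and 93.9 TPM. The 11 mesenchymal markers summed to 279.7 and 193 TPM in DMSO and 133 and 95.1 TPM with I-BET151, and 3 of the 9 tested fell.

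**Figure D4:**
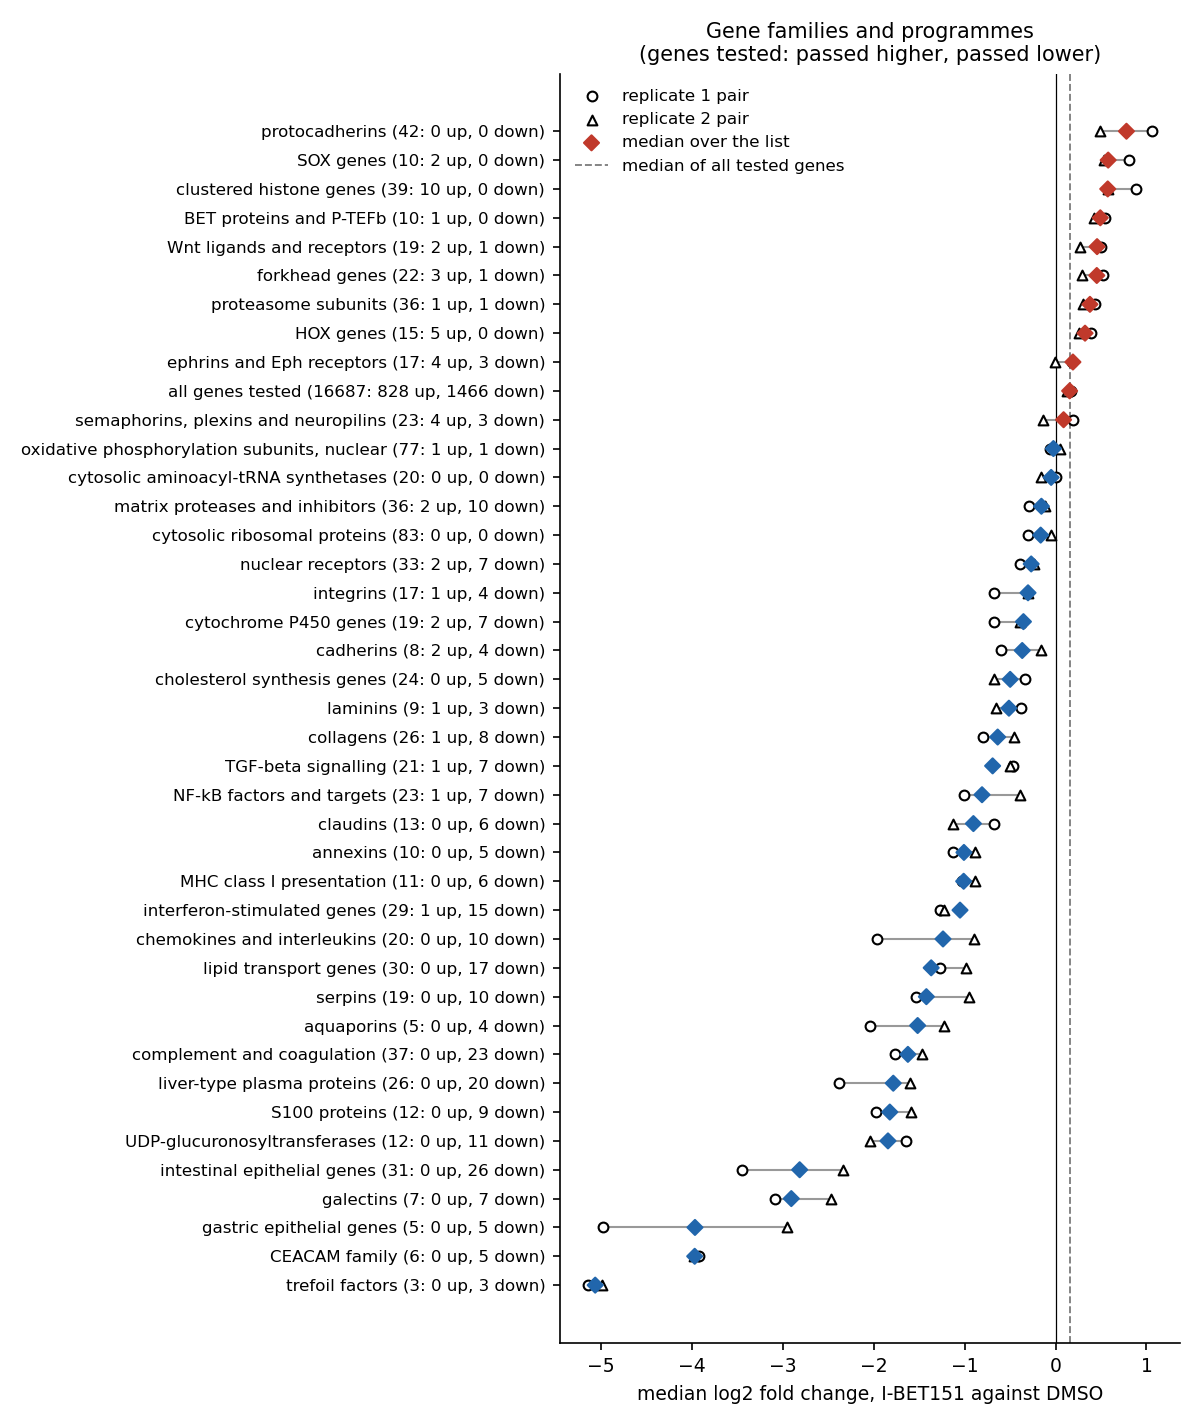
Median log2 fold change of a selection of the families and programmes on the x axis (diamonds, red above zero and blue below), with the medians in the pairs of replicate 1 (circles) and replicate 2 (triangles), and in brackets the genes tested and those that passed in each direction. Gut, liver and immune families lie to the left, down to -5.06 for the trefoil factors, and the highest median among those shown is 0.78.

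The genes that rose were fewer, with transcription factors and signalling genes among them. EFR3B, which holds a phosphatidylinositol kinase at the plasma membrane, was at 0.149 and 0.0473 TPM in DMSO and 15.6 and 5.93 TPM with I-BET151 (a rise of 3.29 ± 0.34, adjusted p = 0.00835), so it went from nearly silent to expressed in both pairs. MEX3B, an RNA-binding protein, rose from 4.05 and 2.56 TPM to 31.7 and 17.2 TPM, and DPYSL4, of a family that steers axon growth, from 13.6 and 6.71 TPM to 72.8 and 33.5 TPM. IZUMO4 rose from 3.602 and 0.601 TPM to 24.96 and 13.8 TPM, FAM222A from 2.004 and 1.45 TPM to 21.5 and 5.94 TPM and FBXL7, part of a ubiquitin ligase, from 6.39 and 0.261 TPM to 16.9 and 12.7 TPM. TUBB3, a tubulin best known from neurons, was picked after its values were seen. Its level went from 115 and 15.2 TPM in DMSO to 803 and 113 TPM with I-BET151, a rise of 2.81 ± 0.15 in the blocked fit, yet its groups overlapped because replicate 2 was low in both. The neural markers PAX6, STMN2, ELAVL4 and SOX1 were under 0.1 TPM in every library.

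Histone genes of the replication-dependent clusters rose, with 10 of 39 tested passing as higher and none as lower (median 0.57). Of the 39, 28 were higher in both pairs (71.8%, against 48.6% of all tested genes). H2AC20 was at 8.88 and 8.13 TPM in DMSO and 29.3 and 31.7 TPM with I-BET151, with little difference between replicates. H3C10 rose from 3.29 and 2.09 TPM to 17.4 and 5.67 TPM and H2AC13 from 1.76 and 1.11 TPM to 9.398 and 4.79 TPM. H3C14 was at 0.676 and 0.0463 TPM and then 4.54 and 20.2 TPM, and the copies of this histone are so alike that the split of reads between them is uncertain. Mature messages of these genes lack a poly(A) tail, so their level also depends on how a library is made.

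Among developmental transcription factors, SOX4 and SOX11, of the SoxC group active in immature cells, rose from 76.6 and 107 TPM to 179.5 and 229.6 TPM and from 7.73 and 8.17 TPM to 27.3 and 27.1 TPM. The SOX11 values were nearly equal within each group. TBX2, a repressor in organ patterning, went from 11.9 and 5.1 TPM to 43.1 and 25.8 TPM. FOXA2, an endodermal pioneer factor, rose from 45.04 and 39.03 TPM to 149.8 and 60.6 TPM. Of 15 tested HOX genes 5 rose (33.3%, against 4.96% of all tested genes) and none fell. Of the 5 that rose, 2 were under 1 TPM in both DMSO libraries and could hardly have fallen. HOX factors pattern the body axis. HOXB3 was at 16.1 and 0.7801 TPM in DMSO and 78.4 and 7.25 TPM with I-BET151, HOXB4 at 4.27 and 0.537 TPM and then 16.4 and 2.39 TPM, and HOXA3 at 2.13 and 0.444 TPM and then 10.99 and 6.22 TPM. In each group the replicate 2 library was the lower, and for HOXB3 and HOXB4 the groups overlapped. Without the block their adjusted p was 0.541 and 0.548. HOXB5 to HOXB9, named after their values were seen, had log2 fold changes between -0.48 and 0.32 and none passed.

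**Figure D5:**
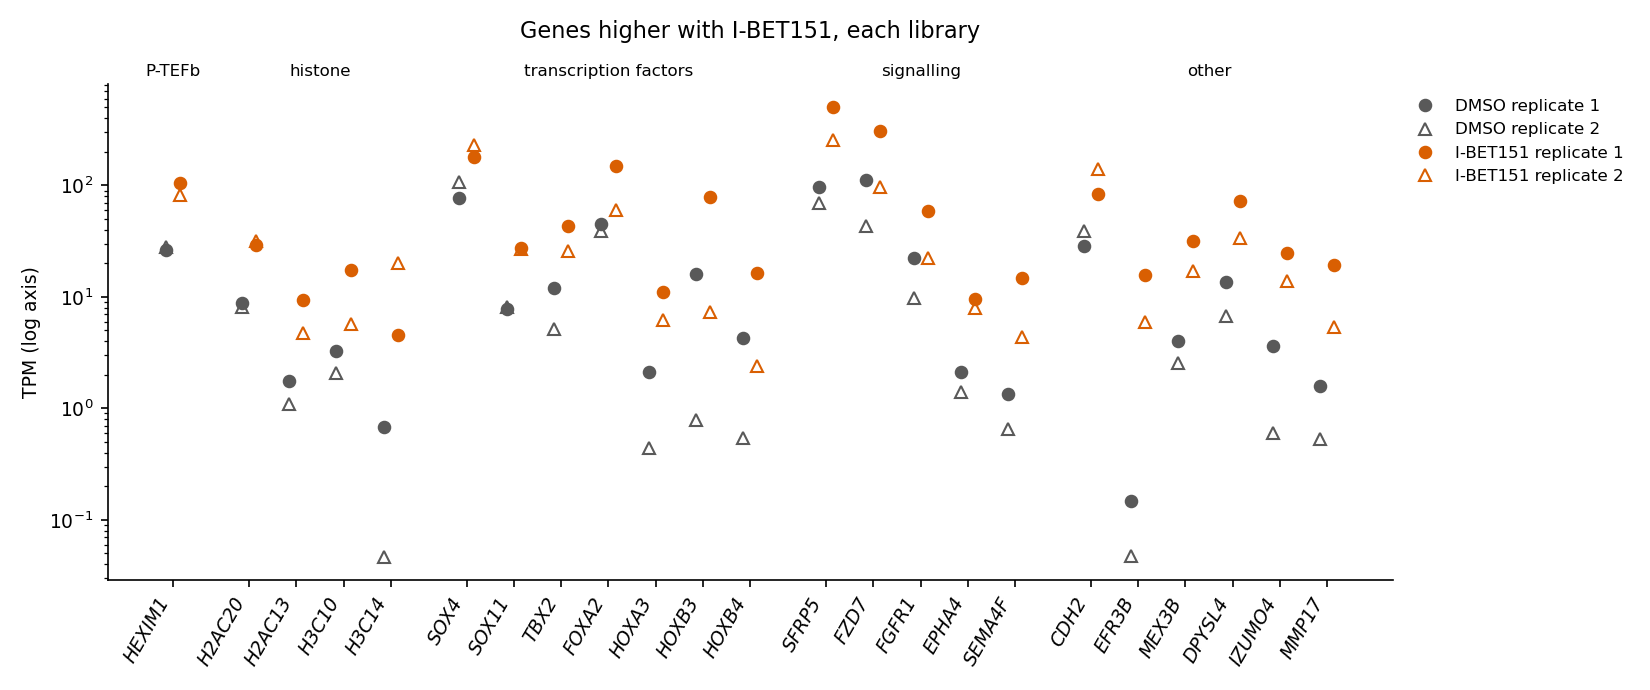
TPM on a log axis in each of the 4 libraries for genes that rose, with the same colours and symbols as in the plot of genes that fell. HEXIM1, H2AC20 and SOX11 sit in tight pairs, whereas for HOXB3, HOXB4 and FZD7 the I-BET151 replicate 2 library lies below DMSO replicate 1.

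Signalling genes went both ways. On the Wnt side SFRP5, a secreted antagonist, rose from 96.01 and 70.1 TPM to 509 and 254 TPM (a rise of 2.12 ± 0.19), while DKK1, another antagonist, fell from 10.5 and 11.3 TPM to 1.498 and 4.24 TPM and the ligand gene WNT2 from 11.5 and 11.5 TPM to 1.96 and 4.17 TPM. The receptor gene FZD7 rose from 112 and 43.1 TPM to 307 and 96.9 TPM with overlapping groups. Of 19 Wnt ligands and receptors 14 were higher in both pairs (73.7%, against 48.6% of all tested genes). SHH, whose absence marks pancreatic endoderm in the embryo, fell from 19.7 and 12.8 TPM to 1.91 and 3.82 TPM. It alone of 8 tested Hedgehog pathway genes passed. In both pairs 5 of the 8 were higher (62.5%, against 48.6% of all tested genes) and 2 lower, and the list's median was 0.55. In the growth factor list FGFR1 rose (22.4 and 9.79 to 59.4 and 22.6 TPM) and AREG, a ligand of the EGF receptor, fell (79.9 and 256 to 5.898 and 64.7 TPM), the latter with a large gap between replicates. ERBB3 fell from 106 and 86.05 TPM to 39.6 and 37.8 TPM. In the TGF-beta list 7 of 21 fell (33.3%, against 8.79% of all tested genes) and 1 rose (4.76%, against 4.96%). LEFTY1, a Nodal antagonist, was at 70.7 and 46.3 TPM and then 20.4 and 8.81 TPM. GDF15, a stress cytokine, was at 187 and 202 TPM and then 36.6 and 60.5 TPM. BMP4 fell from 60.05 and 29.9 TPM to 12.9 and 7.83 TPM. Guidance families were split. Of 17 ephrins and Eph receptors 4 rose (23.5%, against 4.96% of all tested genes) and 3 fell (17.65%, against 8.79%). EPHA4 rose (2.12 and 1.41 to 9.56 and 8.003 TPM) and EFNA2 fell (46.9 and 19.4 to 7.39 and 3.04 TPM). Of 23 semaphorins, plexins and neuropilins 4 rose (17.4%, against 4.96% of all tested genes) and 3 fell (13%, against 8.79%). SEMA4F rose (1.34 and 0.647 to 14.8 and 4.34 TPM) and SEMA3B fell (99.8 and 59.8 to 5.18 and 2.94 TPM).

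Few genes of the basic machinery passed the test. None of 83 cytosolic ribosomal protein genes, 45 translation initiation factors or 20 cytosolic aminoacyl-tRNA synthetases passed in the blocked limma fit, with medians of -0.16, 0.30 and -0.05. Of the ribosomal protein genes 44 were lower in both pairs and 9 higher (53% and 10.8%, against 29.3% and 48.6% of all tested genes). Among the initiation factors 29 were higher in both and 10 lower, and among the synthetases 5 were higher and 9 lower. Of 77 nuclear genes for oxidative phosphorylation 1 rose and 1 fell, ATP5PF and SDHB, and the median was -0.02. Of 36 proteasome genes 31 were higher in both pairs (86.1%, against 48.6% of all tested genes, median 0.38). Of the 36 PSMD2 alone rose, while PSMB8, a subunit of the immunoproteasome, fell from 4.41 and 6.21 TPM to 0.859 and 2.22 TPM. In the chaperone list HSPA8 rose from 205 and 240.1 TPM to 601 and 402 TPM and HSPB1, a small heat shock protein, fell from 240.5 and 127 TPM to 44.01 and 28.6 TPM. The 370 tested zinc finger genes had 5 risers and 4 fallers. Of the 370, 208 were higher in both pairs (56.2%, against 48.6% of all tested genes), with a median of 0.26 against 0.16. The gamma protocadherins, 22 genes that splice variable first exons to shared last exons, had log2 fold changes from 0.72 to 0.98 with none passing, and such shared exons tie their values together.

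Noncoding genes also changed. Of 1795 tested lncRNA genes 137 rose (7.63%) and 118 fell (6.57%). GABPB1-IT1, an RNA from within the GABPB1 locus, rose from 2.51 and 2.89 TPM to 17.9 and 25.2 TPM, while GABPB1 itself, named for comparison, was at 9.01 and 17.2 TPM and then 11.2 and 16.7 TPM. An unnamed lncRNA, ENSG00000270175, rose from 2.37 and 1.57 TPM to 28.9 and 9.696 TPM, ENSG00000277599, classed as a miscellaneous RNA, rose from 32.4 and 34.2 TPM to 224 and 116 TPM, and ENSG00000287486 fell from 25.6 and 19.02 TPM to 1.07 and 1.23 TPM. LINC02038 fell from 16.2 and 17.4 TPM to 0.737 and 1.72 TPM and LINC02387 from 23 and 30.5 TPM to 1.72 and 3.46 TPM. MIR614 (chr12:12915829-12915918, plus strand, hg38) fell from 18.7 and 19.2 TPM to 0.353 and 0 TPM and passed without the block as well. It lies inside GPRC5A (chr12:12891559-12917937, plus strand), a gene named for that reason, which passed with and without the block and fell from 29.04 and 29.7 TPM to 0.204 and 0.878 TPM, so reads listed for the miRNA locus cannot be told apart from reads of the host gene. MTATP8P1 (chr1:633535-633741, plus strand), a nuclear copy of a mitochondrial gene, was at 3.06 and 1.25 TPM in DMSO and 2006 and 1606 TPM with I-BET151, the largest rise of all tested genes and the 1 gene that passed as higher without the block. Its neighbour and overlapping partner MTATP6P1 (chr1:633696-634376, plus strand), named for comparison, was at 910.3 and 852 TPM and then 843 and 967 TPM. All 37 genes of the mitochondrial genome are listed at 0 in every library.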

How the data were processed

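Transcriptomes were sequenced as paired-end reads by the authors, aligned to hg38 with HISAT2 2.1.0 (per the labels' processing notes) and summarised with StringTie. The deposited unit is TPM per gene, computed by the authors; the annotation release, the use of strand and the read totals are not given in the sources used here, so no counting intervals are given. Of 60624 gene IDs, 60370 matched GENCODE release 44. From the deposited TPM, values were put on the log2(TPM + 1) scale, genes that reached 1 TPM in 2 or more of the 4 libraries were kept, and limma 3.58.1 (R 4.3.3, moderated test with an intensity trend, two-sided, Benjamini-Hochberg adjustment over all 16687 genes) was fitted with the replicate number as a block. The thresholds, adjusted p below 0.05 and log2 fold change beyond 1, are those of the study. The study's methods state no block. It was made the main design here to test differences between same-numbered libraries, with earlier results of these data known, and most calls rest on it. Replicate 2 minus replicate 1 differences in DMSO and in I-BET151 correlated across genes (r = 0.675, over genes that are not independent), but with 2 pairs this does not establish what the number marks.

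The fit was tested on simulated data. Named genes were up to 12 protein-coding and 4 noncoding genes per direction with the largest change among those that passed, a mean of at least 10 TPM and no overlap of groups, up to 4 members per list that passed with a mean of at least 5 TPM, otherwise the 2 most abundant, and BRD2, BRD3, HEXIM1 and MYC. Not every gene so named is described, and some genes are not reported here. The members and lists were chosen with earlier results of these data known. Alternatives covered the block, the pseudocount, the filter on low values, centring, quantile normalization, protein-coding genes alone, adjusted p alone, and leaving out each library. The other 10 libraries, from other batches, entered no test, and 5 of them were not used here.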

Additional observations from a re-analysis of the deposited data

How the results depend on the processing

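The counts of genes that passed depend mainly on the replicate block. With it limma called 828 genes higher and 1466 lower, and with no replicate block 1 higher and 34 lower, although 1037 higher and 1499 lower genes then had an unadjusted p below 0.05. Whether the replicate number pairs the libraries cannot be settled from 2 pairs and unexplained labels, so neither count is preferred on the data alone. With no filter on low values (38011 genes) limma called 0 genes in either direction, with 3319 higher and 3007 lower at an unadjusted p below 0.05. Adjusted p alone gave 1477 higher and 1712 lower. Leaving out 1 library, which is possible only without the block and assumes that the lone library varies like the other group, gave 1 higher and 30 lower without DMSO replicate 1, 7 and 226 without DMSO replicate 2, 38 and 462 without I-BET151 replicate 1, and 216 and 661 without I-BET151 replicate 2. A pseudocount of 0.1 (839 and 1377), a filter of 5 TPM (616 and 983), median centring (624 and 1587), quantile normalization (810 and 1484), protein-coding genes alone (681 and 1353) and, chosen after seeing the data, removal of nuclear copies of mitochondrial genes (840 and 1467) stayed within 1.5 times. Over all genes the median change (log2) moved from 0.16 to 0.08 with median centring and to 0.12 with quantile normalization. Of the 136 genes with values in the text, 126 passed with the block (39 higher, 87 lower) and 24 of these also passed without it. With a pseudocount of 0.1, 6 no longer passed (FBXL7, FOXA2, MYCL, S100P, VSIG1 and ZEB1). With median centring 3 did not (FOXA2, MYCL and LAMA1), and with quantile normalization LAMA1 did not. BRD3 passed with a pseudocount of 0.1, with protein-coding genes alone and without nuclear copies of mitochondrial genes. The genes that changed sign had not passed, and none passed after the change. Without DMSO replicate 1 the log2 fold change was 0.18 for CDX2, -0.31 for GABPB1, 0.0051 for HOXB6, -0.17 for KRT18 and 0.45 for KRT8. Without DMSO replicate 2 it was -0.45 for HOXB8 and -0.011 for MTATP6P1, and without I-BET151 replicate 1 it was -0.51 for HOXB8. Without I-BET151 replicate 2 it was -0.15 for GABPB1, 0.26 for HOXB6, 0.27 for KRT8 and -0.062 for MTATP6P1, and with median centring it was -0.044 for MTATP6P1. The cause of these changes was not tested.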

Other observations

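Some of these genes can be set beside 5 progenitor libraries of the series, which came from other batches, so the values are given with no test. In 1 library of freshly differentiated progenitors, TFF2 was at 1.68 TPM, CEACAM1 at 3.23 TPM, C3 at 0.292 TPM, CIDEC at 0.145 TPM and LAMB3 at 6.87 TPM. In 4 libraries of expanded progenitors kept in I-BET151 for many passages, TFF2 lay between 1.46 and 5.22 TPM, CEACAM1 between 2.71 and 3.54 TPM and C3 between 0.134 and 0.392 TPM. The DMSO libraries were at 234 and 132 TPM for TFF2, 462 and 524 TPM for CEACAM1 and 267 and 188 TPM for C3. Not every gene that fell was this low in the freshly differentiated library, where MMP1 was at 50.5 TPM, HLA-DRB1 at 40.8 TPM and CDH1 at 156 TPM, the last above both DMSO libraries. In the expanded progenitors CDH1 lay between 10.9 and 13.98 TPM. A further gene looked up, which is not reported here, also lay nearer to DMSO than to I-BET151 in the freshly differentiated library.

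Among genes that rose, EFR3B was at 8.82 TPM in the freshly differentiated library and between 11.9 and 14.6 TPM in the expanded progenitors, against 0.149 and 0.0473 TPM in DMSO. CDH2 was at 177 TPM and between 144 and 233 TPM, against 28.7 and 38.7 TPM in DMSO. HEXIM1 was at 51.5 TPM and between 65.7 and 75.7 TPM, against 26.5 and 27.9 TPM. MTATP8P1 was at 1.29 TPM and between 1.67 and 3.66 TPM, against 2006 and 1606 TPM in the 2 I-BET151 libraries.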
